A study of Homo sapiens with 6 samples.

Results

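Integrins are the receptors through which epithelial cells hold on to the matrix beneath them. The 8 genes described here encode integrin subunits that lie outside the hemidesmosome, though not all such subunits. They are the alpha subunits ITGA2, ITGA3, ITGA5 and ITGAV and the beta subunits ITGB1, ITGB5, ITGB6 and ITGB8. They were chosen by gene symbol, all 8 were found among the 26255 genes listed for each library, and 7 of them passed the filter on low values into the 12035 genes tested. ITGA5 did not. The human genome holds 26 integrin subunit genes in all, and the other 18 are given more briefly.

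HT29 is a long-established human colon cancer cell line. The first group received YM155, a compound known as a survivin (BIRC5) suppressant, for 24 h, and the second received the solvent DMSO. Each group has 3 libraries of messenger RNA. No gene was altered in either group, the dose is not given in the sources used here, and all 6 libraries are of 1 cell line. Whether the 3 samples of a group are separate cultures is not stated in the labels, and the p-values reflect only how these samples scatter, and that scatter may be technical.

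Every integrin is a pair of 1 alpha and 1 beta subunit, and the pair decides the ligand. Alpha-2 joins beta-1 to bind collagens, alpha-3 joins beta-1 to bind laminins such as laminin-332 and laminin-511, and alpha-5 joins beta-1 to form the classical fibronectin receptor. Alpha-V joins beta-1, beta-5, beta-6 or beta-8 to bind ligands that carry an RGD motif, among them vitronectin, fibronectin and the latency peptide of TGF-beta, which the alpha-V pairs with beta-6 and beta-8 are known to activate. The hemidesmosome uses another pair, alpha-6 with beta-4.

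Levels are in FPKM, a fragment density per transcript length and library size, so that levels of different genes can be compared per length. By the spacing of low values, the libraries held about 15.3 to 17.9 M effective reads with YM155 and 24.5 to 27.3 M with DMSO. FPKM summed to 684616 ± 9919 with YM155 and 547222 ± 13938 with DMSO (SD, n = 3), a ratio of 1.25, and the scaling of the libraries therefore enters every comparison of levels. The 10 colon epithelial markers summed to 8706 to 9463 FPKM with YM155 and 5452 to 5731 FPKM with DMSO, and 8 of them stood at 1 FPKM or more in every library. Most of this sum was KRT8 and KRT18, which averaged 3239 and 3006 FPKM with YM155 and 1962 and 1706 FPKM with DMSO. The markers moved both ways: EPCAM, KRT8, KRT18, KRT20, CDH1 and CEACAM5 were higher in every YM155 library, and VIL1 and CDX2 were lower. VIL1 was at 22.3 FPKM with YM155 and 38.6 FPKM with DMSO. LGALS4 overlapped between the groups. CDX1 did not reach 1 FPKM in any library and CDX2 only with DMSO. Fibroblast markers (8 genes) summed to at most 0.135 FPKM with YM155 and 0.358 FPKM with DMSO, endothelial markers (5 genes) to at most 0.250 FPKM with YM155 and 0.192 FPKM with DMSO, and leukocyte markers (7 genes) to at most 0.904 FPKM with YM155 and 1.19 FPKM with DMSO, with DCN, PDGFRA and THY1 at 0 throughout. BIRC5 itself stood at 6.36 ± 0.671 FPKM with YM155 and 21.8 ± 0.940 FPKM with DMSO.

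The starts of these genes differ in base composition. The RefSeq promoter table (GRCh38.p14) holds 7 of the 8 genes, without ITGA3, with 11 listed starts between them; its build is not that of the expression files (hg19), and genes are matched by gene symbol alone. The 250 bases before the start are shown for ITGA2, the member with the largest rise, ITGB1, the most abundant member, and ITGB6, a member whose change was not called. Capitals mark matches to the motifs searched on both strands, which here are GGGCGG or its complement (the GC box bound by SP1), GGAATG (TEAD factors) and TGACNNNGC (the antioxidant response element).
ITGA2, chr5:52989102-52989351, plus strand: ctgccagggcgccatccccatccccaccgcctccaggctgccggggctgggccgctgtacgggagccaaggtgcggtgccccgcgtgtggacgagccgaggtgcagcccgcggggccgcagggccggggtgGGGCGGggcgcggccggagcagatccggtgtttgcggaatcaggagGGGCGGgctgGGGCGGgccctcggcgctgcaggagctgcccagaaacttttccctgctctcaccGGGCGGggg
ITGB1, chr10:32958231-32958480, minus strand: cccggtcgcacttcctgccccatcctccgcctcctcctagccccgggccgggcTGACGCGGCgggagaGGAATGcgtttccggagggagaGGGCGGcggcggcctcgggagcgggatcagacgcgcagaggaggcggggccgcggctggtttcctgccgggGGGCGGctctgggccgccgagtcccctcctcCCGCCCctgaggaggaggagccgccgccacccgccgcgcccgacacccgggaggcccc
ITGB6, chr2:160200273-160200522, minus strand: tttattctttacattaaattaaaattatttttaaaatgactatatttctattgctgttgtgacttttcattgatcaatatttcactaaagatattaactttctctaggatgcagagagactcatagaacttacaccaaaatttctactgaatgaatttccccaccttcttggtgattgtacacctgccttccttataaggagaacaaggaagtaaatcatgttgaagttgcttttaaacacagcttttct

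The ITGA2 window is 76.4% G or C and holds 4 matches to the GC box. The ITGB1 window shown is 78.4% G or C and holds 3, along with 1 match to the TEAD letters and 1 to the antioxidant letters. The window of the other listed start of ITGB1 is 41.6% G or C and holds no match to these letters. The ITGB6 window is 30.0% G or C, with no CG dinucleotide and no match to any motif searched. The median over 35116 promoters was 58.0%, and 1.52% of them had a lower G and C content than ITGB6. GC box letters were present in 42.6% of all such windows, TEAD letters in 11.9% and antioxidant letters in 10.9%. The AP-1 letters TGANTCA, present in 6.57% of windows, were found in none of the 11 windows of the members, and the letters TGATGNAA of the C/EBP-ATF element, present in 3.14%, were found in 1 window of ITGB5. The letters TATAAA, present in 10.7% of windows, were found at 1 of the listed starts of ITGB1, where 2 of the 3 matches overlap. No match was counted for more than 1 motif at the same bases. ITGB8 has a window of 71.2% G or C with 2 GC boxes, and ITGA5 one of 70.0% with 1 GC box and 1 TEAD match. These are matches of letters and not measured binding.

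After 24 h of YM155 the subunits of the collagen and laminin receptors had the largest increases among the members. ITGA2 rose 3.95-fold and ITGA3 3.08-fold, their common partner ITGB1 rose 2.00-fold, and the alpha-V subunit ITGAV and its partner ITGB5 rose 1.66-fold and 1.82-fold. ITGB6 was within 9.93% of its DMSO level and was not called. ITGB8 fell to 49.5% of its DMSO level, and ITGA5 was at or near 0 in all 6 libraries. Of the 7 members tested, 5 were called higher, 1 lower and 1 was not called (limma, Benjamini-Hochberg adjusted p under 0.05 among the 12035 genes). Among all tested genes 43.6% were called higher and 41.0% lower, so a call is common in these data. Of all calls 51.5% were higher, against 37.4% with the libraries scaled to a common sum, 36.4% with upper-quartile scaling and 45.8% with quantile normalization. The members called higher with a log2 fold change of at least 1 were 2, ITGA2 and ITGA3, against 15.9% of all tested genes, and 0 members were called lower with a log2 fold change of at most -1, against 11.8% of all tested genes. In these bulk samples fewer cells that express a gene and less of its RNA per cell cannot be told apart.

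**Figure D1:**
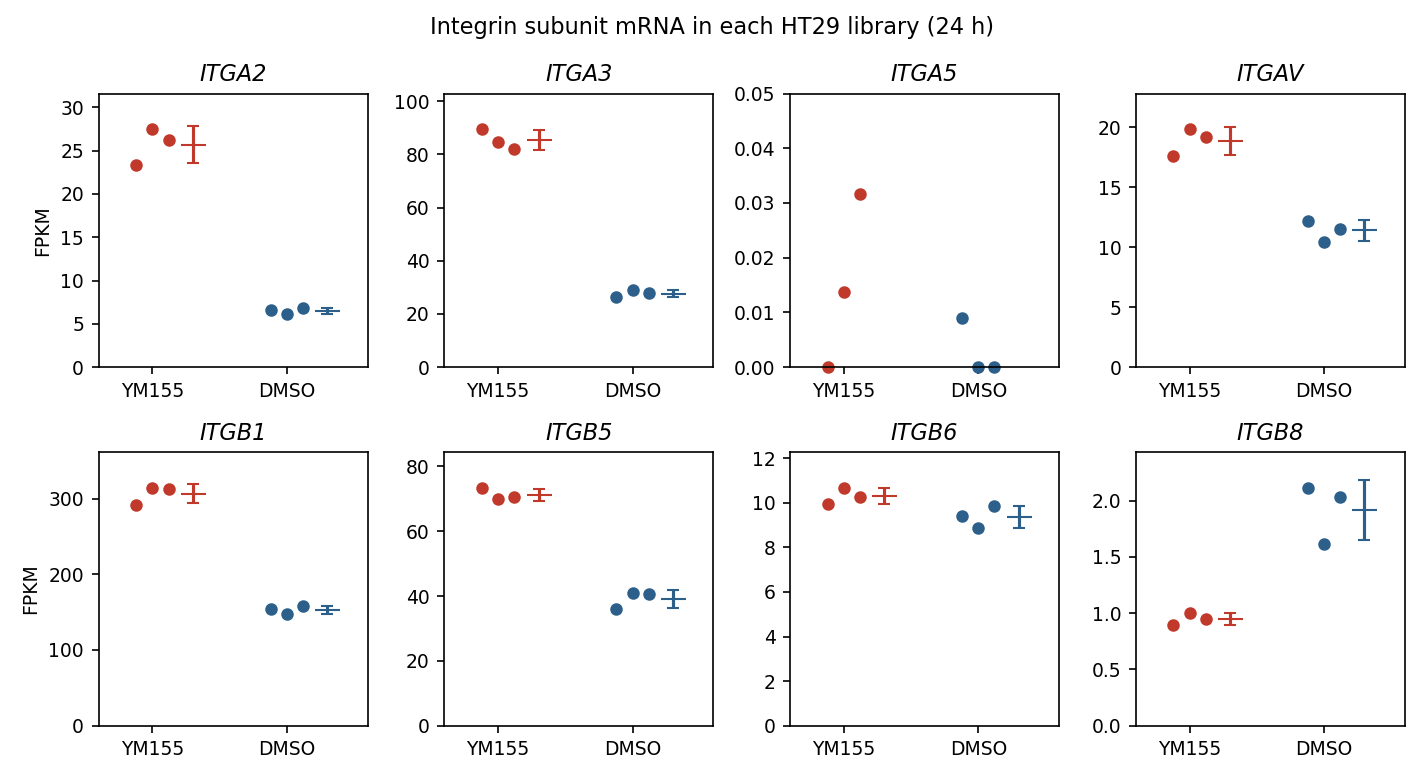
FPKM of each of the 8 integrin genes in the 3 YM155 libraries (red) and the 3 DMSO libraries (blue), on linear axes that start at 0 and differ between genes. Points are libraries and the bars beside them the mean and SD (not drawn for ITGA5); the YM155 libraries lie above the DMSO libraries for ITGA2, ITGA3, ITGAV, ITGB1, ITGB5 and, by a small margin, ITGB6, and below them for ITGB8.

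ITGA2 encodes the alpha-2 subunit, whose inserted domain binds the collagen triple helix. It was measured at 23.3, 27.5 and 26.2 FPKM in the YM155 libraries, against 6.55, 6.12 and 6.84 FPKM in the DMSO libraries. Every YM155 library was far above every DMSO library. The averages were 25.7 ± 2.13 FPKM with YM155 and 6.50 ± 0.362 FPKM with DMSO (SD, n = 3 each), a log2 fold change of 1.83 on the log2(FPKM + 1) scale (SE 0.07, 95% interval 1.66 to 1.99, limma adjusted p = 2.8e-08). Of the 12035 tested genes, 534 had a higher log2 fold change.

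ITGA3 encodes the laminin-binding alpha-3 subunit, which in gut and skin epithelium pairs with beta-1. Its level was 89.5, 84.7 and 82.1 FPKM with YM155, against 26.4, 28.9 and 27.8 FPKM with DMSO. The groups stood far apart and the libraries of each group close together. The averages of 85.4 ± 3.76 FPKM with YM155 and 27.7 ± 1.22 FPKM with DMSO gave a log2 fold change of 1.59 (SE 0.05, 95% interval 1.47 to 1.71, limma adjusted p = 9.3e-09).

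ITGA5, the alpha-5 subunit of the fibronectin receptor, was listed at 0, 0.0138 and 0.0317 FPKM with YM155, against 0.00906, 0 and 0 FPKM with DMSO. With the longest coding transcript in GENCODE release 29 (4444 bases) and the estimated depths, these values correspond to about 0, 1 and 2 reads with YM155 and 1, 0 and 0 reads with DMSO. No fold change is given, since both groups were at the level of single reads. The depth behind the other members was far greater, from about 117 read equivalents for the lowest value of ITGB8 to about 20199 for the highest of ITGB1.

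ITGAV encodes the alpha-V subunit, the common partner of beta-5, beta-6 and beta-8. It stood at 17.6, 19.8 and 19.2 FPKM with YM155, against 12.2, 10.4 and 11.5 FPKM with DMSO. The groups did not overlap, but they were closer together than for ITGA2 and ITGA3. The averages were 18.9 ± 1.16 FPKM with YM155 and 11.4 ± 0.894 FPKM with DMSO (log2 fold change 0.68, SE 0.07, 95% interval 0.52 to 0.84, limma adjusted p = 1.5e-05).

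ITGB1, the beta-1 subunit shared by the collagen, laminin and fibronectin receptors, was the most abundant member in both groups. Its level was 292, 314 and 312 FPKM with YM155, against 155, 147 and 158 FPKM with DMSO. The lowest YM155 library was well above the highest DMSO library. The averages were 306 ± 12.5 FPKM with YM155 and 153 ± 5.59 FPKM with DMSO (log2 fold change 0.99, SE 0.05, 95% interval 0.89 to 1.10, limma adjusted p = 8.9e-08).

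ITGB5, the beta-5 subunit of a vitronectin receptor, was at 73.4, 69.9 and 70.4 FPKM with YM155, against 35.8, 40.8 and 40.6 FPKM with DMSO. DMSO replicate 1 was the lowest of its group, and no library crossed to the other group. Its averages were 71.2 ± 1.91 FPKM with YM155 and 39.1 ± 2.79 FPKM with DMSO (log2 fold change 0.85, SE 0.06, 95% interval 0.72 to 0.98, limma adjusted p = 8.0e-07).

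ITGB6, the beta-6 subunit, is restricted to epithelium and known for activating TGF-beta. It was at 9.94, 10.7 and 10.3 FPKM with YM155, against 9.40, 8.85 and 9.85 FPKM with DMSO. The groups lay side by side without overlapping, as they did for all 7 tested members and for 85.9% of all tested genes. The log2 fold change of 0.12 had a 95% interval of -0.01 to 0.26 and was not called (SE 0.06, limma adjusted p = 0.084). Its sign turned with the scaling, to -0.17 with a common sum, -0.19 with upper-quartile scaling and -0.01 with quantile normalization, so no direction is given for it.

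ITGB8, the beta-8 subunit, which also binds latent TGF-beta, was the scarcest member above the filter. It was at 0.899, 1.00 and 0.950 FPKM with YM155, against 2.12, 1.61 and 2.03 FPKM with DMSO. DMSO replicate 2 lay below the other DMSO libraries and still above all YM155 libraries. The averages were 0.951 ± 0.0518 FPKM with YM155 and 1.92 ± 0.268 FPKM with DMSO, a 2.02-fold fall (log2 fold change -0.58, SE 0.09, 95% interval -0.78 to -0.38, limma adjusted p = 2.2e-04). ITGB8 met the filter through its DMSO libraries, since only 1 YM155 library reached 1 FPKM, and its place among the tested genes is thus tied to the group where it is high. Without the filter it was also called lower (limma adjusted p = 0.0011). The log2(FPKM + 1) scale understates the change of so scarce a transcript, and with a pseudocount of 0.1 the log2 fold change was -0.94.

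The order of the members by level changed between the groups. With YM155 it ran ITGB1, ITGA3, ITGB5, ITGA2, ITGAV, ITGB6, ITGB8 and ITGA5, and with DMSO it ran ITGB1, ITGB5, ITGA3, ITGAV, ITGB6, ITGA2, ITGB8 and ITGA5. No neighbours in either order overlapped between their 3 libraries. ITGA2 was thus above both ITGAV and ITGB6 with YM155, and below both with DMSO.

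The changes of scarce and abundant genes differed across the whole data set, and 2 of the members lay close to that background. The median log2 fold change was 0.02 over all tested genes, -0.52 in the decile of genes with the lowest mean FPKM, which holds ITGB8, and 0.09 in the decile that holds ITGB6. ITGB8 and ITGB6 differed from the medians of their own deciles by -0.06 and 0.04. The 5 members called higher exceeded the medians of theirs by 0.48 (ITGB5), 0.52 (ITGAV), 0.68 (ITGB1), 1.22 (ITGA3) and 1.61 (ITGA2). What share of the fall of ITGB8 goes with its low level was not tested.

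**Figure D2:**
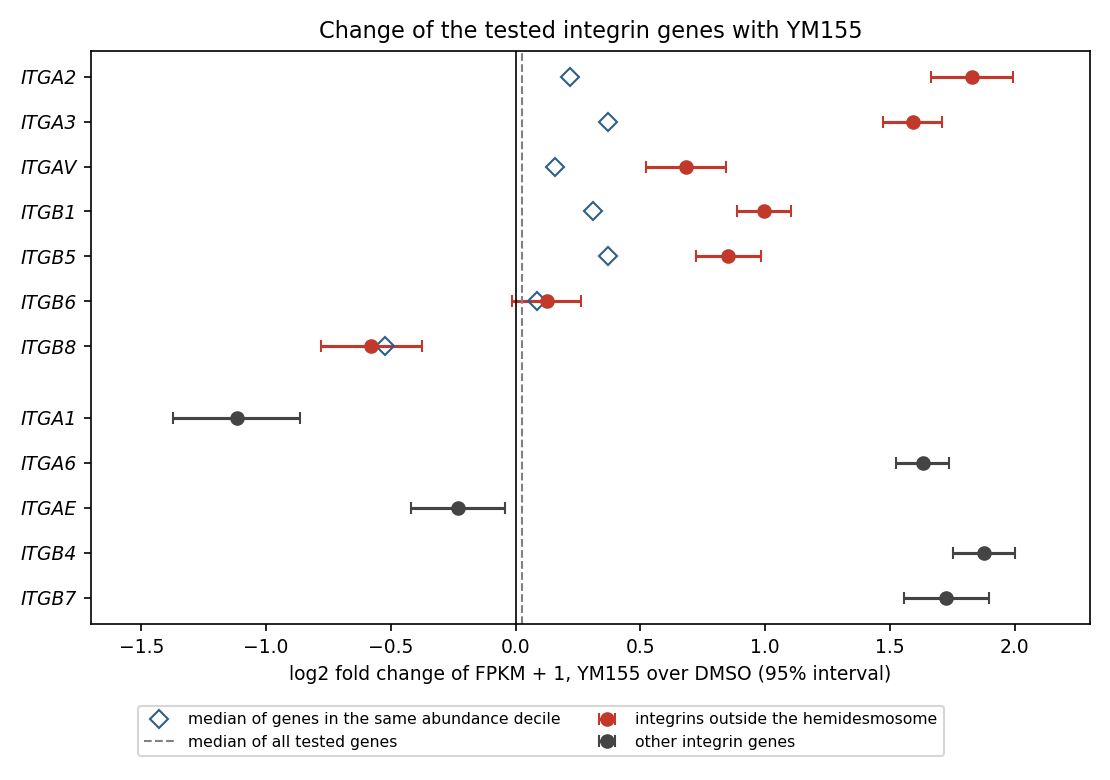
Log2 fold change with its 95% interval for the 7 tested members (red) and the 5 other tested integrin genes (grey), YM155 over DMSO. Diamonds give the median of all genes in the same decile of mean FPKM and the dashed line the median of all tested genes (0.02); ITGB6 and ITGB8 lie at their diamonds and ITGA2 lies 1.61 above its own.

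The direction of 6 of the 7 members was kept under the 4 other scalings of the libraries. Rescaling to a common sum moved the median of all genes by -0.28, upper-quartile scaling by -0.31 and quantile normalization by -0.11. Over all alternatives run, the log2 fold change was 1.51 to 1.96 for ITGA2, 1.19 to 1.63 for ITGA3, 0.35 to 0.73 for ITGAV, 0.49 to 1.03 for ITGB1, 0.42 to 0.89 for ITGB5 and -0.94 to -0.23 for ITGB8, and each of the 6 stayed past the threshold wherever it was tested. The value of ITGB8 nearest to 0 came with quantile normalization (adjusted p = 0.048). Relative to the median of all genes, the changes with the deposited scale were 1.80 for ITGA2, 1.57 for ITGA3, 0.97 for ITGB1, 0.83 for ITGB5, 0.66 for ITGAV, 0.10 for ITGB6 and -0.60 for ITGB8.

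**Figure D3:**
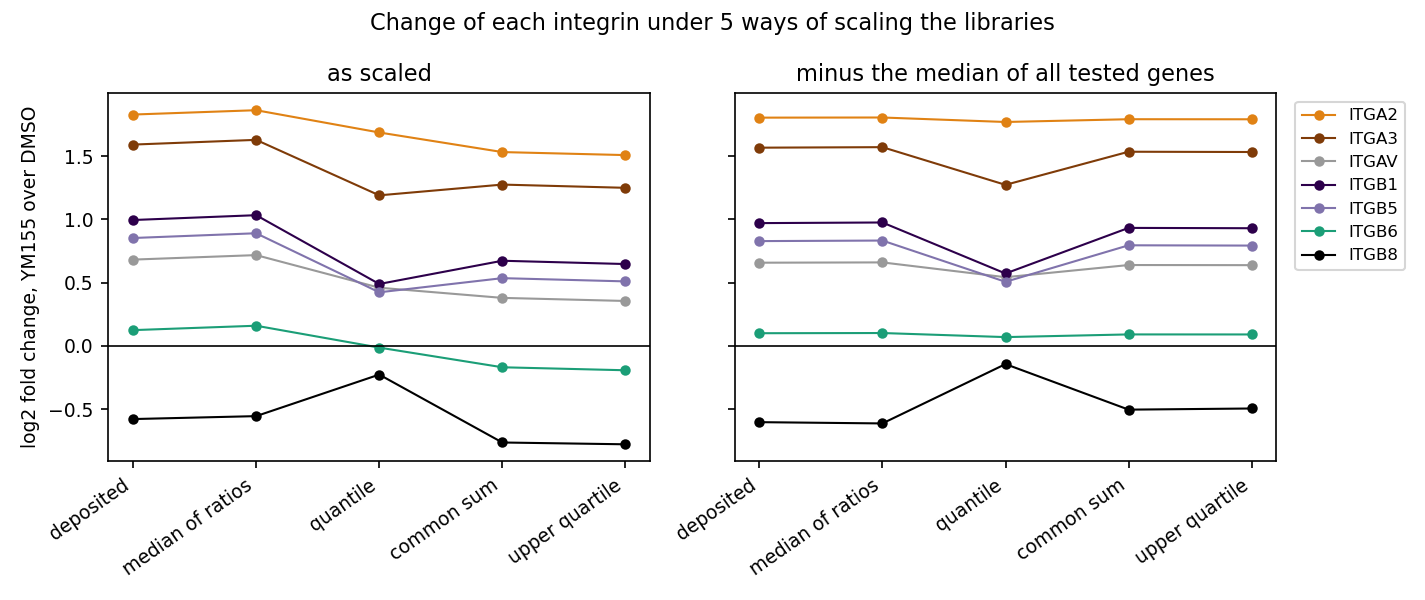
Log2 fold change of each tested member (YM155 over DMSO) with the deposited values and under 4 other scalings of the libraries, as scaled (left) and after subtracting the median of all tested genes (right). ITGB6 crosses 0 on the left, from 0.16 with median-of-ratios scaling to -0.19 with upper-quartile scaling, while the other members keep their side of 0.

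The make-up of the subunit messages within a library does not change with a single scaling factor per library. Of the summed FPKM of the 4 alpha members, ITGA2 made up 17.9%, 20.8% and 20.6% with YM155, against 14.5%, 13.5% and 14.8% with DMSO. ITGA3 made up 65.7% ± 2.52 with YM155 and 60.7% ± 2.57 with DMSO. ITGAV, although its own level rose, made up 14.5% ± 0.894 with YM155 and 25.0% ± 2.02 with DMSO (SD, n = 3 each). The groups did not overlap for any of the 3. Over all alpha integrin genes, ITGA2 made up 8.79% ± 0.679 with YM155 and 6.32% ± 0.183 with DMSO, and ITGAV 6.46% ± 0.365 with YM155 and 11.1% ± 0.658 with DMSO, without overlap. In that wider sum ITGA3 made up 29.3% ± 1.28 with YM155 and 27.0% ± 1.79 with DMSO, and the groups overlapped. ITGA1, another collagen-binding subunit, made up 0.416% ± 0.102 with YM155 and 3.67% ± 0.317 with DMSO. Among the beta members ITGB1 made up 78.8% ± 1.01 with YM155 and 75.3% ± 1.21 with DMSO, and ITGB5 18.3% ± 1.03 with YM155 and 19.2% ± 1.42 with DMSO, where the groups overlapped. ITGB6 made up 2.65% ± 0.0451 with YM155 and 4.60% ± 0.118 with DMSO, and ITGB8 0.245% ± 0.00765 with YM155 and 0.942% ± 0.118 with DMSO. Over all beta integrin genes, which include ITGB4, the share of ITGB1 went the other way, with 42.7% ± 2.23 with YM155 and 52.5% ± 1.38 with DMSO, and ITGB5 made up 9.93% ± 0.233 with YM155 and 13.4% ± 0.853 with DMSO, both without overlap. ITGB6 and ITGB8, the beta subunits known for activating TGF-beta, had a smaller share of either sum in every YM155 library than in any DMSO library.

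**Figure D4:**
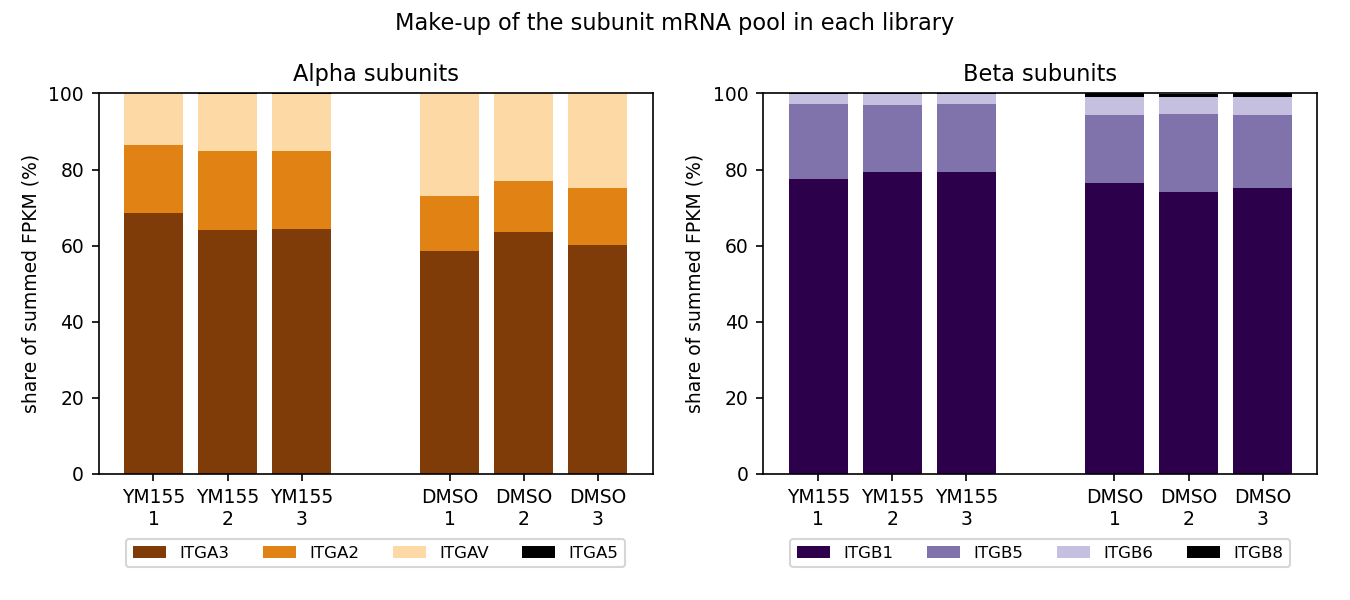
Share of each subunit in the summed FPKM of the 4 alpha members (left) and of the 4 beta members (right), in percent, for the 3 YM155 and the 3 DMSO libraries. ITGAV averages 14.5% of the alpha messages with YM155 and 25.0% with DMSO, and ITGB6 averages 2.65% of the beta messages with YM155 and 4.60% with DMSO; ITGA5 is too scarce to be seen.

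The ratios of subunits that form a pair were compared within each library. The level of ITGA2 was 0.0838 ± 0.00372 of that of ITGB1 with YM155 and 0.0425 ± 0.000853 with DMSO, and that of ITGA3 was 0.280 ± 0.0237 with YM155 and 0.181 ± 0.0134 with DMSO. The message of ITGB1 exceeded the sum of ITGA2, ITGA3 and ITGAV 2.36-fold with YM155 and 3.36-fold with DMSO. That sum leaves out ITGA6, which can also pair with beta-1 and averaged 158 FPKM with YM155 and 50.5 FPKM with DMSO. The excess over all alpha partners was thus smaller. ITGB5 was 3.79 ± 0.341 times the level of ITGAV with YM155 and 3.45 ± 0.489 times with DMSO, ratios whose groups overlapped. ITGB6 was 0.546 ± 0.0165 of the level of ITGAV with YM155 and 0.824 ± 0.0470 with DMSO, and ITGB8 was 0.0504 ± 0.000845 with YM155 and 0.168 ± 0.0117 with DMSO. The ratios of ITGB6 and ITGB8 to ITGAV were lower in every YM155 library than in any DMSO library. These ratios are of messages, and pairing of the proteins was not measured.

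Of the 18 other integrin genes 5 were tested, and 3 were called higher and 2 lower, against 43.6% and 41.0% of all tested genes. ITGA6 and ITGB4, the pair of the hemidesmosome, averaged 158 ± 2.56 and 321 ± 20.6 FPKM with YM155, against 50.5 ± 2.50 and 86.6 ± 2.94 FPKM with DMSO (log2 fold changes 1.63 and 1.88, limma adjusted p = 4.5e-09 and 4.7e-09). ITGA6, which can pair with beta-1 as well, was 1.86 ± 0.0895 times the level of ITGA3 with YM155 and 1.83 ± 0.157 times with DMSO, and the groups overlapped. ITGB7, the beta-7 subunit best known from lymphocytes of the gut, averaged 7.86 ± 0.379 FPKM with YM155 and 1.68 ± 0.171 FPKM with DMSO (log2 fold change 1.73, limma adjusted p = 5.4e-08). The gene ZNF740 overlaps ITGB7 on the opposite strand and was at 21.5 FPKM with YM155 and 18.5 FPKM with DMSO. The level of ITGB7 is uncertain where their reads could be shared. The known partners of ITGB7, ITGA4 and ITGAE, were at 0 in every library and at 1.00 ± 0.0177 FPKM with YM155 and 1.35 ± 0.178 FPKM with DMSO. The call of ITGAE as lower (log2 fold change -0.23, limma adjusted p = 0.027) ended without DMSO replicate 2 or 3 or any 1 of the YM155 libraries (adjusted p = 0.050 to 0.11), and its sign turned with quantile normalization (0.14).

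ITGA1, the alpha-1 subunit of the other main collagen receptor with beta-1, went the opposite way from ITGA2. It was at 1.42, 0.888 and 1.33 FPKM with YM155, against 4.16, 3.36 and 3.83 FPKM with DMSO. All YM155 libraries were lower, and ITGA1, like ITGAE, had all 3 libraries at 1 FPKM or more with DMSO alone (log2 fold change -1.12, SE 0.11, limma adjusted p = 1.1e-05). ITGA2 was 16.4, 31.0 and 19.8 times the level of ITGA1 in the YM155 libraries, against 1.57, 1.82 and 1.79 times in the DMSO libraries. The gene PELO lies within ITGA1 on the same strand and was at 20.2 FPKM with YM155 and 9.45 FPKM with DMSO, so the level of ITGA1 is uncertain where their reads could be shared. The remaining 13 integrin genes were under the filter. ITGA7 was at 0.346 ± 0.0877 FPKM with YM155 and 1.07 ± 0.0889 FPKM with DMSO, and ITGA10 at 0.752 ± 0.0699 FPKM with YM155 and 0.488 ± 0.0508 FPKM with DMSO. ITGA4 and ITGAD were listed at 0 throughout, and ITGA2B, ITGA8, ITGA9, ITGA11, ITGAL, ITGAM, ITGAX, ITGB2 and ITGB3 did not exceed 0.200 FPKM in any library. These include the leukocyte subunits that pair with beta-2 and the platelet pair of ITGA2B with ITGB3.

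On the matrix side, the laminin chains differed strongly among themselves. Of 24 laminin, nidogen and collagen genes 9 were tested. Of these, 6 were called higher and 3 lower, against 43.6% and 41.0% of all tested genes. Their median log2 fold change was 0.99, against 0.02 over all tested genes. Of laminin-332, a ligand of alpha-3 with beta-1, the alpha-3 chain LAMA3 was at 133 ± 6.36 FPKM with YM155 and 6.11 ± 0.162 FPKM with DMSO, and the beta-3 chain LAMB3 was at 332 ± 15.9 FPKM with YM155 and 26.3 ± 1.5 FPKM with DMSO. LAMC1, the gamma-1 chain of laminin-511, rose 3.26-fold. The following chains were named after their values were seen: LAMB1, the beta-1 chain of laminin-511, fell to 20.0 ± 2.05 FPKM with YM155, against 33.5 ± 0.232 FPKM with DMSO, and LAMA5, its alpha-5 chain, had a log2 fold change of 0.22 that turned to -0.10 with a common sum, -0.12 with upper-quartile scaling and -0.12 with quantile normalization. The others called lower, also named afterwards, were LAMB2, the beta-2 chain (log2 fold change -1.19), and COL4A2, of basement membrane collagen (-0.34), whose sign turned with quantile normalization. COL4A1, also of basement membrane collagen and named afterwards, was at 1.14 ± 0.104 FPKM with YM155 and 0.0801 ± 0.0357 FPKM with DMSO, and it met the filter through its YM155 libraries alone.

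Of 15 genes of RGD-type and related integrin ligands, kept as 1 list of RGD-type ligands, 8 were tested. Of these, 5 were called higher and 2 lower, against 43.6% and 41.0% of all tested genes. Their median log2 fold change was 0.61. ADAM9, a membrane metalloprotease that can bind integrins, rose 2.22-fold, to 93.9 ± 4.20 FPKM with YM155, against 42.3 ± 0.629 FPKM with DMSO. THBS1, encoding thrombospondin-1, rose 2.67-fold. TNC, encoding tenascin-C, was at 1.24 ± 0.0503 FPKM with YM155 and 0.124 ± 0.0241 FPKM with DMSO; it met the filter through its YM155 libraries alone, so that its entry among the genes called higher is tied to its change. CTGF, a matricellular ligand, fell to 5.49 ± 0.501 FPKM with YM155, against 22.7 ± 3.49 FPKM with DMSO. The other gene called lower, named after its values were seen, was NPNT, encoding nephronectin (10.1 ± 0.771 FPKM with YM155, 14.8 ± 0.440 FPKM with DMSO). MFGE8 was at 22.4 ± 0.388 FPKM with YM155 and 21.7 ± 1.48 FPKM with DMSO and was not called. With a common sum (log2 fold change -0.26), upper-quartile scaling (-0.29) and quantile normalization (-0.25) MFGE8 was called lower. Vitronectin (VTN) and fibronectin (FN1), also named afterwards and the best known ligands of alpha-V and alpha-5, did not exceed 0.124 and 0.623 FPKM in any library.

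The list of latent TGF-beta, a ligand of the beta-6 and beta-8 pairs, and of its anchors had 4 of 9 genes tested. Of these, 2 were called higher and 1 lower, against 43.6% and 41.0% of all tested genes. Their median log2 fold change was 0.08. TGFB1 rose 1.66-fold, to 37.8 ± 0.853 FPKM with YM155, against 22.7 ± 0.438 FPKM with DMSO (limma adjusted p = 4.8e-07). LTBP1, which tethers the latent complex, fell to 2.28 ± 0.161 FPKM with YM155, against 3.36 ± 0.220 FPKM with DMSO, a call that ended with quantile normalization (adjusted p = 0.072). The number called higher was 1 without DMSO replicate 1 or 3 or YM155 replicate 2 or 3. LTBP4 was called higher (limma adjusted p = 0.042) and had a log2 fold change of 0.19 that turned to -0.10 with a common sum and -0.13 with upper-quartile scaling, and LTBP3 was not called (11.1 ± 0.949 FPKM with YM155, 11.4 ± 0.481 FPKM with DMSO). LTBP3 was called lower with a common sum (log2 fold change -0.33), upper-quartile scaling (-0.35) and quantile normalization (-0.20).

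Inside the cell, most genes of the adhesion plaque, the assembly that links beta subunit tails to actin, were higher with YM155. Of 32 listed genes 26 were tested, 20 were called higher, 4 lower and 2 not called, with a median log2 fold change of 0.88. Over all tested genes 43.6% were called higher and 41.0% lower. Taking the other scalings of the libraries together, 3 of the 26 changed sign and 5 changed their call. ZYX, encoding zyxin, rose 9.22-fold, to 348 ± 4.79 FPKM with YM155, against 37.7 ± 2.89 FPKM with DMSO. BCAR1, the scaffold p130Cas, rose 5.36-fold, ACTN4, an actin crosslinker, 3.92-fold and VASP, an actin polymerase, 3.74-fold. RSU1 was not called (7.83 ± 0.618 FPKM with YM155, 6.95 ± 0.408 FPKM with DMSO). Further genes of the list were named after their values were seen: TLN1 (talin-1) rose 2.80-fold and FERMT1 (kindlin-1, the epithelial kindlin) 2.1-fold, while FERMT3 (kindlin-3, the blood cell kindlin) was not called (2.19 ± 0.396 FPKM with YM155, 1.82 ± 0.127 FPKM with DMSO). The kinase-like scaffold ILK rose 1.79-fold and PTK2 (focal adhesion kinase) 1.48-fold. The 4 genes called lower, also named afterwards, were TNS3, LPXN, TNS2 and LIMS2, with log2 fold changes of -1.52, -1.17, -0.51 and -0.42, and LIMS2 met the filter through its DMSO libraries alone.

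Genes whose products restrain integrins went both ways, in shares near those of all tested genes. FLNA, encoding filamin A, which competes with talin for beta tails, rose 6.28-fold, to an average of 113 ± 6.78 FPKM with YM155. ITGB1BP1, encoding the beta-1 inhibitor ICAP-1, fell to 7.89 ± 0.883 FPKM with YM155, against 13.3 ± 0.470 FPKM with DMSO, and DOK1 fell to 3.96 ± 0.341 FPKM with YM155, against 6.39 ± 0.711 FPKM with DMSO. SHARPIN was not called (28.3 ± 1.75 FPKM with YM155, 27.6 ± 1.22 FPKM with DMSO). It was called lower with a common sum (log2 fold change -0.28), upper-quartile scaling (-0.30) and quantile normalization (-0.31). Of these 5 genes 2 were called higher and 2 lower with the deposited values, against 43.6% and 41.0% of all tested genes. Their median log2 fold change was 0.03.

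Of 11 membrane partners of integrins 7 were called higher and 2 lower, against 43.6% and 41.0% of all tested genes. Their median log2 fold change was 0.20. The counts became 3 higher and 7 lower with a common sum or upper-quartile scaling, and 3 higher and 8 lower with quantile normalization. SLC3A2, the CD98 heavy chain that binds beta-1 tails, rose 12.8-fold, to 1008 ± 17.2 FPKM with YM155, against 78.9 ± 4.15 FPKM with DMSO. PLAUR, the urokinase receptor, rose 13.5-fold and CAV1, encoding caveolin-1, 2.2-fold (with the filter met through its YM155 libraries), while the tetraspanin gene TSPAN4 fell 2.02-fold and BSG was not called. BSG was called lower with a common sum (log2 fold change -0.27), upper-quartile scaling (-0.29) and quantile normalization (-0.42). CD151, the tetraspanin partner of alpha-3 named after its values were seen, had a log2 fold change of 0.20 that turned to -0.12 with a common sum, -0.14 with upper-quartile scaling and -0.30 with quantile normalization. CD47, which binds alpha-V pairs and was also named afterwards, fell to 6.15 ± 0.408 FPKM with YM155, against 9.43 ± 1.11 FPKM with DMSO.

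Of 14 genes of integrin traffic 11 were called higher and 1 lower, against 43.6% and 41.0% of all tested genes. Their median log2 fold change was 0.59, and 5 of them changed sign under at least 1 scaling. RAB21, which carries beta-1 integrins through endosomes, rose 3.68-fold, to 28.8 ± 2.16 FPKM with YM155, against 7.82 ± 0.905 FPKM with DMSO. RAB11FIP1, of the recycling of alpha-5 with beta-1, rose 3.12-fold, ARF6 2.51-fold and RAB5A 2.37-fold, and RAB11A was not called (35.3 ± 1.14 FPKM with YM155, 33.7 ± 1.11 FPKM with DMSO). RAB11A was called lower with a common sum (log2 fold change -0.25), upper-quartile scaling (-0.28) and quantile normalization (-0.31). SNX17, which keeps beta-1 from lysosomes and was named after its values were seen, was the 1 gene called lower with the deposited values (13.1 ± 1.31 FPKM with YM155, 23.8 ± 1.21 FPKM with DMSO). Of the 4 proprotein convertases, enzymes that cut the precursors of alpha-3, alpha-5 and alpha-V, FURIN rose 1.95-fold, PCSK5 6.20-fold and PCSK7 1.73-fold, and PCSK6 was not called (5.42 ± 0.228 FPKM with YM155, 5.49 ± 0.194 FPKM with DMSO). PCSK6 was called lower with a common sum (log2 fold change -0.29) and upper-quartile scaling (-0.31). Of the 4 convertases 3 were called higher and 0 lower, against 43.6% and 41.0% of all tested genes. Their median log2 fold change was 0.82.

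**Figure D5:**
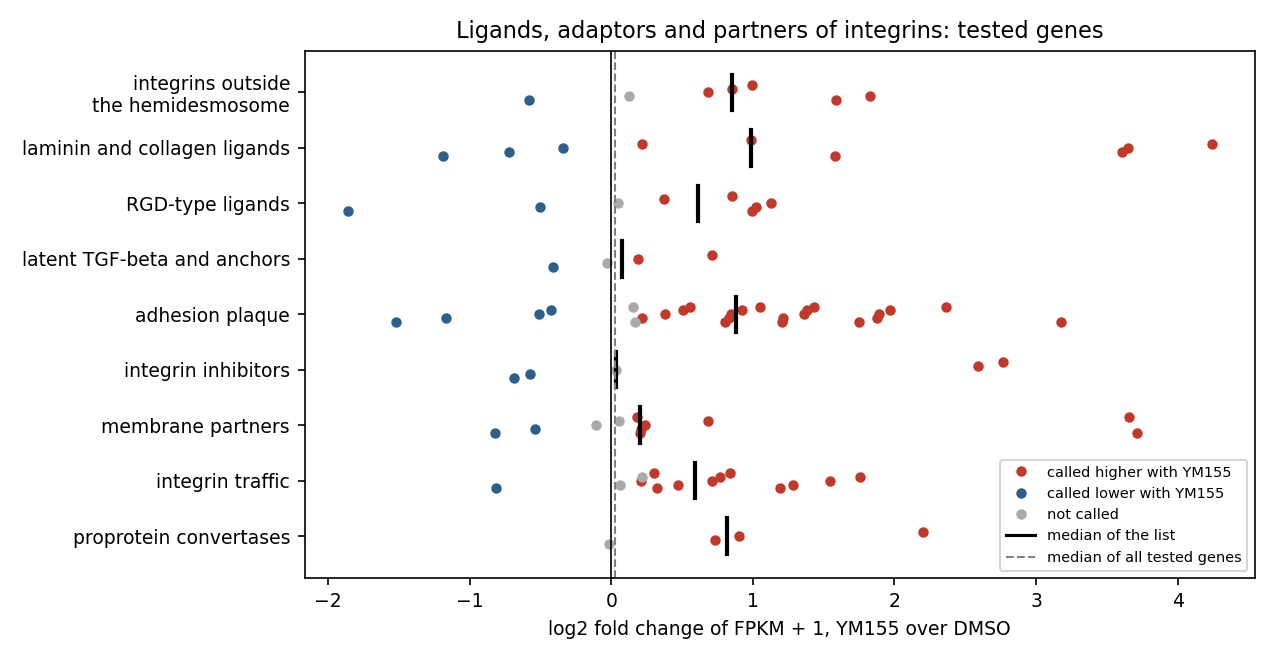
Log2 fold change (YM155 over DMSO) of the 7 tested members and of the tested genes in 8 lists of ligands, adaptors and partners; each point is a gene, coloured by its call, the black bar is the median of a list and the dashed line the median of all tested genes (0.02). The median of the adhesion plaque list lies at 0.88 and that of the integrin inhibitors at 0.03.

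The genes outside the integrins with profiles most like each member over the 6 libraries were found by the smallest distance between log2(FPKM + 1) values centred on their own means. They were MTMR10, ARNTL2 and STX3 for ITGA2 (distances 0.0758 to 0.0794), SNHG17, NSMF and HABP4 for ITGA3 (0.0378 to 0.0689), and CTDSPL2, C1orf27 and ASCC3 for ITGAV (0.0594 to 0.0636). For the beta subunits they were ATAD2B, TSC22D1 and SH3BP4 for ITGB1 (0.0281 to 0.0494), PAF1, TFEB and PXN for ITGB5 (0.0647 to 0.0805), HNRNPU, ARMCX3 and MGAT1 for ITGB6 (0.0426 to 0.0589) and NUCKS1, NIPAL1 and NANOS1 for ITGB8 (0.0657 to 0.0831). PXN, at rank 3 for ITGB5, encodes paxillin, a scaffold of the adhesion plaque. It was at 50.2 ± 2.19 FPKM with YM155 and 27.6 ± 1.75 FPKM with DMSO, a 1.82-fold rise. Genes chosen by this distance change about as much as their member by construction, so their similar folds are no separate result.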

How the data were processed

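Messenger RNA was sequenced in 6 libraries of HT29 cells, 3 after 24 h with YM155 and 3 with DMSO. The authors deposited FPKM values per gene symbol, 1 table per library. Cufflinks 2.2.1, Cuffdiff, SAMtools 1.2, TopHat2 2.1.1 and Bowtie2 2.3.5.1 are named, with build hg19, per the submitters' processing notes. The annotation, settings, library scaling and use of strand were each not given in the sources used here, so reads of overlapping antisense genes cannot be told apart. FPKM hold no counts: depth was estimated from the steps of low values in single-transcript genes (GENCODE release 29, assumed fragment length of 200 bases), which put 58.9% to 64.7% of them at whole reads (tolerance 0.1 read), too few for a count test.

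Genes with at least 1 FPKM in at least 3 of 6 libraries (12035) were compared as log2(FPKM + 1) with limma 3.58.1 in R 4.3.3 (a two-sided test, eBayes with trend), adjusted by Benjamini-Hochberg over these genes at a threshold of 0.05. The procedure was tested on simulated data in which few genes changed and the libraries did not differ in scaling. That test does not cover changes as widespread as those here. Folds are ratios of mean FPKM, and SD are over 3 libraries. Lists are described by counts and medians, with no test of a list. The members and lists were chosen with earlier results of these data known. Named from each list were up to 4 called genes with the lowest p and the most abundant gene not called; other genes were chosen after their values were seen, and are marked so. Some genes that this rule names are not reported here. Alternatives were pseudocounts of 0.1 and 0.5, no filter, a mean of at least 5 FPKM, median-of-ratios, upper-quartile, common-sum and quantile scaling, eBayes without trend or robust, a replicate block, leaving out each library, and a threshold of 0.01.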

Additional observations from a re-analysis of the deposited data

How the results depend on the processing

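Calls of ITGA2, ITGA3, ITGAV, ITGB1, ITGB5 and ITGB8 kept their direction and their side of the threshold in every alternative in which the gene was tested. ITGB6 was not called with the deposited values (0.12) and was called with median-of-ratios scaling (0.16); its log2 fold change turned to -0.17 with a common sum, -0.19 with upper-quartile scaling, where it was called lower, and -0.013 with quantile normalization. The members called lower numbered 1, against 2 with upper-quartile scaling and 0 with a mean of at least 5 FPKM, where ITGB8 was not tested. Over all genes, 4940 were called lower, against 2922 with a mean of at least 5 FPKM, and the share of calls that were higher was 51.5%, against 36.4% with upper-quartile and 37.4% with common-sum scaling and 60.2% with a mean of at least 5 FPKM.

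Counts of other integrins called higher moved from 3 to 6 without a filter; those called lower moved from 2 to 0 with a mean of at least 5 FPKM, to 1 with quantile normalization and a threshold of 0.01, and to between 1 and 2 with a library left out. With a mean of at least 5 FPKM, fewer genes being tested, the counts were 1 laminin or collagen gene lower, 3 RGD-type ligands higher, 0 latent TGF-beta genes lower, 2 adhesion plaque genes lower and 1 membrane partner lower. Without a filter 6 laminin or collagen genes and 2 latent TGF-beta genes were lower. Latent TGF-beta genes higher fell to 1 with common-sum, upper-quartile and quantile scaling and a threshold of 0.01, and lay between 1 and 2 with a library left out; those lower were 2 with common-sum and upper-quartile scaling. Membrane partners higher were 3 with common-sum, upper-quartile and quantile scaling, and those lower 7, 7 and 8; their median relative to all genes turned to -0.18 with quantile normalization. Traffic genes lower were 2, 2 and 3 under these scalings, and proprotein convertases lower were 1 with common-sum and upper-quartile scaling. With common-sum, upper-quartile and quantile scaling, 3 RGD-type ligands and 3 integrin inhibitors were called lower. The causes were not tested.

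Same-numbered libraries of the groups did not deviate together (r of -0.15 to -0.07 in 3 pairs), and no YM155 library correlated best with its own number. With a replicate block 5147 genes were called higher and 4861 lower, the members stayed at 5 higher and 1 lower, and ITGB6 was not called (adjusted p = 0.15). By the estimated depths the YM155 libraries were the shallower ones, which would limit low values such as those of ITGA5 most.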
